A study of Homo sapiens with 6 samples.

Results

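The genes of the respiratory chain and of ATP synthase were examined in SH-SY5Y cells exposed to unconjugated bilirubin (UCB) for 4 h. Members were taken by symbol: every probe set whose single annotated gene symbol began with NDUF, UQCR, ATP5 or COX followed by a number, or was SDHA, SDHB, SDHC, SDHD, CYC1 or CYCS. This gave 115 of the 22215 probe sets tested, standing for 79 of 11963 genes. Complex I had 28 genes, complex II 3, complex III 7, complex IV 12 and complex V, the ATP synthase, 15, so that 65 genes were core subunits. A further 9 genes were assembly factors (NDUFAF1, NDUFAF3, NDUFAF4, NDUFAF5, NDUFAF7, COX10, COX11, COX15 and COX20). The remaining 5 were CYCS, the electron carrier cytochrome c; ATP5IF1, an inhibitor of ATP synthase; COX7A2L, a factor of respiratory supercomplexes; and NDUFB2-AS1 and ATP5MC2P1, an antisense transcript and a pseudogene. SDHB was not analysed here, and 11 probe sets that carried several symbols were left out.

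SH-SY5Y is a human neuroblastoma line that serves as a model of neuronal cells. In the Bf 140 nM group the medium held free bilirubin (Bf) at 140 nM, and in the DMSO 0.6% group it held the solvent alone, at 0.6%. There were 3 Affymetrix arrays in each group, from separate flasks that the labels call independent biological replicates, and all cells were collected after 4 h. By the study's methods, bilirubin had itself been dissolved in 0.6% DMSO and given in medium with fetal bovine serum, so both groups share the solvent and the serum. The line is clonal and tumour derived. Values are the authors' variance-stabilised, normalised log2 levels, a scale that understates changes of dim probe sets. Of the noradrenergic neuroblast markers, 13 were measured and 11 had a mean above that of the median probe set, which was 7.97; TH, the rate-limiting enzyme of catecholamine synthesis, and HAND2 were the exceptions. Of the mesenchymal or Schwann-like markers, 9 were measured and 5 lay above it; S100B was the 1 of these markers whose groups did not overlap (-0.07, lower in Bf 140 nM, as in 0.981% of all probe sets). In such bulk RNA, fewer cells of a type and less RNA per cell cannot be told apart.

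The respiratory chain is a row of protein complexes in the inner mitochondrial membrane. Complexes I and II take electrons from NADH and succinate, complex III passes them through cytochrome c to complex IV, which reduces oxygen, and ATP synthase uses the proton gradient so formed. Most subunits are encoded in the nucleus, where the transcription factors NRF1, GABP and YY1 are known to act on many of their promoters, and neurons draw most of their ATP from this chain. The few subunits encoded by mitochondrial DNA are outside the symbol rule.

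The data held no difference between the groups that passed the test in any member. Of 115 member probe sets, 0 passed an adjusted p of 0.10 by limma, 0% of all probe sets passed it, and the adjusted p of every member was 1.00. At an unadjusted p under 0.05 there were 0 members, against 17 probe sets (0.0765%) over the whole array. The smallest unadjusted p among the members was 0.132, for UQCRC1. Fitted ratios of Bf 140 nM to DMSO 0.6% ran from 0.84 to 1.16 over the 79 genes, each read at its probe set of highest mean. At those probe sets the 95% confidence interval excluded a change of 2 fold for all 79 genes and of 1.5 fold for 71 of them (89.9%). Over all genes these shares were 98.9% and 88.1%. The 8 genes whose interval reached 1.5 fold there were NDUFA5, NDUFA10, NDUFB2, NDUFB3, COX5B, ATP5F1C, ATP5F1E and NDUFAF4. Of the 115 member probe sets, the interval excluded 2 fold for 114 and 1.5 fold for 100 (87.0%). These shares were 97.8% and 85.7% over all probe sets. The exception at 2 fold was a dimmer probe set of UQCRB (95% CI for the ratio 0.49 to 1.36). Changes smaller than these intervals could not be detected with 3 arrays a group.

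**Figure D1:**
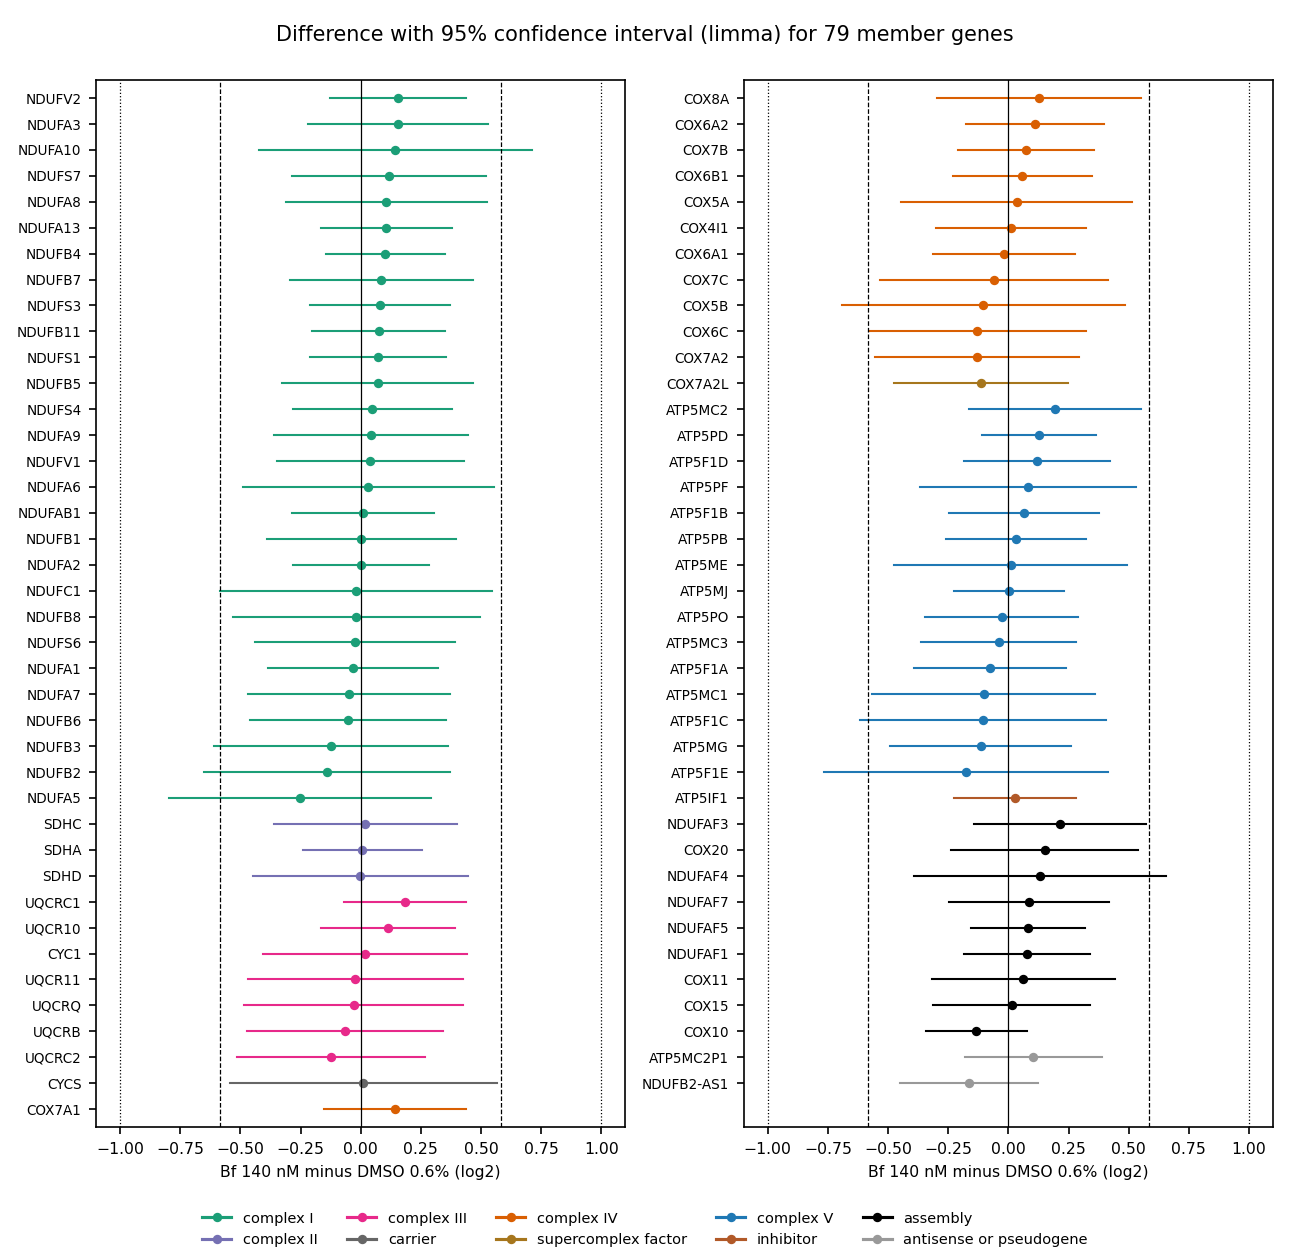
Difference of each of the 79 genes at its probe set of highest mean, Bf 140 nM minus DMSO 0.6% on the log2 scale, with its 95% confidence interval from limma, coloured by complex or role; dashed lines mark 1.5 fold and dotted lines 2 fold. Every interval spans 0, none reaches 2 fold, and 8 cross 1.5 fold.

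The difference per complex was close to that of the whole array. The median over the 79 genes was 0.02 (log2, Bf 140 nM minus DMSO 0.6%), with 50 genes above 0 (63.3%), and over all genes it was 0.03, with 63.7% above 0. It was 0.04 for complex I (19 of 28 above 0), 0.01 for complex II (2 of 3) and -0.02 for complex III (3 of 7). For complex IV it was 0.02 (7 of 12), and for complex V 0.0009 (8 of 15). The assembly genes had the highest median, 0.08, with 8 of 9 above 0. Each of these medians is within the spread between arrays, and each but that of the assembly genes changed sign when single arrays were left out.

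COX10, which makes the heme A precursor of complex IV and counts here as an assembly gene, was the 1 member whose groups did not overlap. Its probe set read 9.10, 9.11 and 9.00 in Bf 140 nM replicates 1, 2 and 3, against 9.22, 9.18 and 9.21 in the DMSO 0.6% replicates. All 3 Bf 140 nM arrays lay below all 3 DMSO 0.6% arrays. The difference was -0.13 ± 0.09 (SE), a ratio of 0.91 (95% CI 0.79 to 1.05), with an unadjusted p of 0.177 and an adjusted p of 1.00 by limma, and it was -0.12, -0.08 and -0.21 within replicates 1, 2 and 3. The member share without overlap was 1 of 115 (0.87%), and 2.66% of all probe sets had groups that did not overlap, 0.981% with the Bf 140 nM arrays lower and 1.68% with them higher. The count was 20 without Bf 140 nM replicate 2, where the share was 17.4% for the members and 17.6% for all probe sets.

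At their brightest probe sets, the other assembly genes lay on the higher side without separating the groups. NDUFAF3, a complex I assembly factor, read 10.43, 10.31 and 10.52 in Bf 140 nM and 10.31, 10.42 and 9.90 in DMSO 0.6%. Its difference, 0.21 ± 0.15 (SE; unadjusted p = 0.203 by limma), was the highest of the 79 genes at their brightest probe sets, and the single low value was that of DMSO 0.6% replicate 3. NDUFAF4, of the same process, read 10.82, 10.82 and 11.46 in Bf 140 nM and 10.59, 10.89 and 11.22 in DMSO 0.6%. The groups overlapped, and replicate 3 was the highest array in both. COX11, which brings copper to complex IV, read 11.40, 10.95 and 11.52 in Bf 140 nM and 11.10, 11.25 and 11.34 in DMSO 0.6%, with its lowest value in Bf 140 nM replicate 2. Its difference was 0.06 there, and -0.0009 and -0.04 at its dimmer probe sets. The rest differed by 0.01 (COX15, which completes heme A), 0.08 (NDUFAF1), 0.08 (NDUFAF5), 0.09 (NDUFAF7) and 0.15 (COX20), and all of these overlapped. The probe set annotated to COX20 carries a transcript accession that RefSeq assigns to HOXA7, the only such case among 66 member accessions found there, and without it 7 of 8 assembly genes were above 0 and their median was 0.08.

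Core subunits were then set against assembly genes. The median of the 65 core subunits was 0.01 and that of the 9 assembly genes 0.08, a difference of -0.07 (core minus assembly). Within replicate numbers it was -0.03, -0.03 and -0.10. It turned to 0.01 without DMSO 0.6% replicate 3 and to 0.01 without Bf 140 nM replicate 1, and was -0.03 with the beta-actin 3' minus 5' difference as a covariate, so its sign depended on single arrays.

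**Figure D2:**
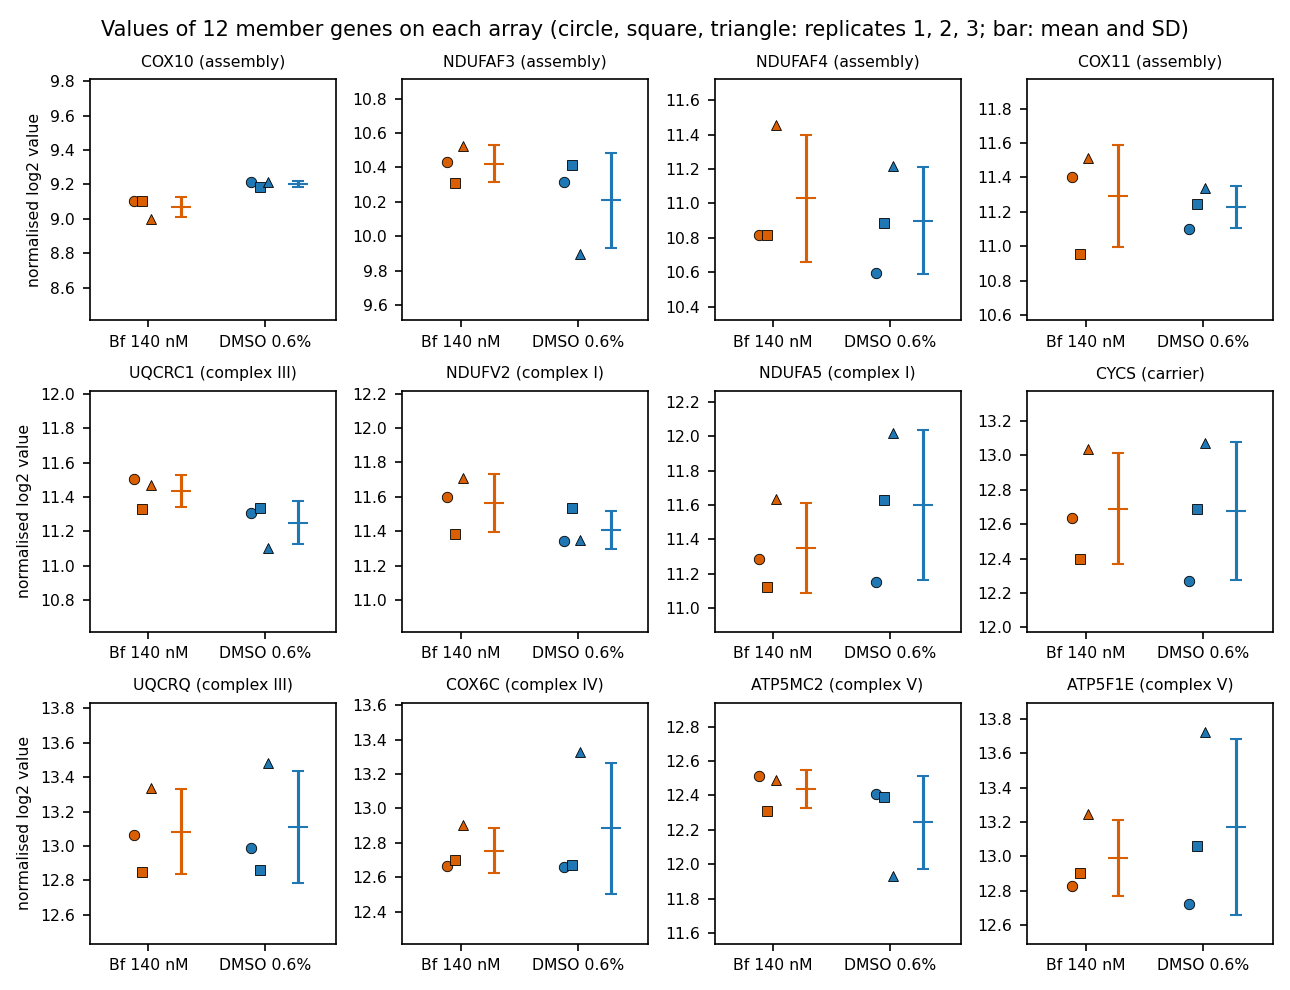
Array by array values of 12 genes (normalised, log2), Bf 140 nM left and DMSO 0.6% right, with circles, squares and triangles for replicates 1, 2 and 3 and the mean ± SD beside them; every panel spans the same 1.4 log2 units, placed around its own gene. Only COX10 has groups that do not overlap, and replicate 3 (triangles) is the highest point of both groups for NDUFAF4, COX11, NDUFA5, CYCS, UQCRQ, COX6C and ATP5F1E.

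Among complex I subunits, NDUFV2, a flavoprotein-side subunit that holds an iron-sulfur cluster, read 11.60, 11.38 and 11.71 in Bf 140 nM and 11.34, 11.53 and 11.35 in DMSO 0.6%. Its difference was 0.16 ± 0.12 (SE), positive in replicates 1 and 3 and -0.15 in replicate 2. NDUFA5, an accessory subunit of the peripheral arm, read 11.29, 11.12 and 11.64 in Bf 140 nM and 11.15, 11.63 and 12.02 in DMSO 0.6%. It had the lowest difference of the 79 genes at their brightest probe sets, -0.25 ± 0.23 (SE; unadjusted p = 0.313 by limma), with DMSO 0.6% replicate 3 the highest array. The second probe set of NDUFA5 differed by 0.06, the opposite sign. Of the other accessory subunits, NDUFA3 (0.16) and NDUFB4 (0.10) were on the higher side and NDUFB2 (-0.14) and NDUFB3 (-0.12) on the lower. At the brightest probe set of each gene, NDUFA3 and NDUFA9 were the only genes of the 79 above 0 in all 3 replicate numbers. COX10 and NDUFB2 were the only ones below 0 in all 3. This is 2.53% each way against 8.56% and 4.39% of all genes.

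Complex II, succinate dehydrogenase, showed differences next to 0 in its catalytic subunit SDHA (0.01) and in its membrane anchors SDHC (0.02) and SDHD (-0.0019). SDHD read 10.43, 10.03 and 10.74 in Bf 140 nM, against 10.21, 10.54 and 10.46 in DMSO 0.6%, so that Bf 140 nM held both the lowest and the highest array. SDHC had 4 probe sets, whose differences ran from -0.08 to 0.15.

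In complex III, UQCRC1, a core protein of the matrix side, read 11.51, 11.33 and 11.47 in Bf 140 nM and 11.31, 11.34 and 11.11 in DMSO 0.6%. The groups overlapped by a single array: Bf 140 nM replicate 2 lay just under DMSO 0.6% replicate 2. The difference was 0.18 ± 0.11 (SE), a ratio of 1.14 (95% CI 0.95 to 1.36). Its partner core protein UQCRC2 differed by -0.12 at its brighter probe set and by 0.23 at the other. UQCR10 (0.11) and CYC1, the cytochrome c1 subunit (0.02), were above 0, and UQCRB (-0.07), UQCRQ (-0.03) and UQCR11 (-0.02) below it. The dimmer probe sets of UQCRB differed by -0.29, the lowest difference of the 115 member probe sets, and by 0.02. CYCS, which carries electrons from complex III to complex IV and is released from mitochondria in apoptosis, read 12.63, 12.40 and 13.04 in Bf 140 nM and 12.27, 12.69 and 13.07 in DMSO 0.6%. Both groups covered the same range, with replicate 3 highest in each, and the difference was 0.01 ± 0.24 (SE; 95% CI for the ratio 0.69 to 1.48).

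In complex IV, the subunits COX4I1, COX5A and COX6A1 differed by 0.01, 0.03 and -0.02. COX6C read 12.66, 12.70 and 12.90 in Bf 140 nM and 12.66, 12.67 and 13.33 in DMSO 0.6%. COX8A read 12.96, 12.78 and 12.85 in Bf 140 nM and 13.02, 12.86 and 12.33 in DMSO 0.6%. The differences of these subunits, -0.13 and 0.13, were of opposite sign, and in both DMSO 0.6% replicate 3 was the array farthest from the rest. COX7A2 (-0.13) and COX5B (-0.10) were the other lowest subunits, and COX6B1 (0.06) and COX7B (0.07) lay above 0. The muscle isoforms COX7A1 and COX6A2 differed by 0.14 and 0.11, but their means were not above that of the median probe set, which held for 6 of the 79 genes; NDUFAF5, NDUFAF7, NDUFB2-AS1 and ATP5MC2P1 were the others.

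In complex V, ATP5MC2, 1 of the 3 genes for the ring-forming c subunit, read 12.51, 12.31 and 12.49 in Bf 140 nM and 12.41, 12.39 and 11.93 in DMSO 0.6%. The difference was 0.19 ± 0.15 (SE), and DMSO 0.6% replicate 3 was the single low array. The other c subunit genes differed by -0.10 (ATP5MC1) and -0.04 (ATP5MC3). ATP5F1E, the epsilon subunit, read 12.83, 12.90 and 13.24 in Bf 140 nM and 12.72, 13.06 and 13.73 in DMSO 0.6%, a difference of -0.18 ± 0.25 (SE) with DMSO 0.6% replicate 3 highest. The catalytic beta subunit ATP5F1B and the alpha subunit ATP5F1A differed by 0.06 and -0.08. ATP5PD (0.13) and ATP5F1D (0.12) were next on the higher side, and ATP5MG (-0.11) and ATP5F1C (-0.11) on the lower. ATP5IF1 differed by 0.03 and COX7A2L by -0.11.

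The sign of the differences varied with the replicate number. In replicate 1 the median over the 79 genes was 0.10, and 66 (83.5%) were higher in Bf 140 nM. In replicate 2 it was -0.15, and 71 (89.9%) were lower. In replicate 3 it was 0.13, and 50 (63.3%) were higher. Over all genes the shares in the same directions were 58.8%, 53.5% and 59.3%. Over the 1240 genes with a mean above 11, a limit chosen after the data were seen, they were 67.3%, 91.2% and 70.7%, so that lower values in replicate 2 made up a like share of the bright genes and of the members. Bf 140 nM replicate 2 was the lowest array of its group for 63 of the 79 genes (79.7%) and Bf 140 nM replicate 3 the highest for 62 (78.5%), and these shares were 43.3% and 37.7% over all genes and 83.8% and 77.4% over the bright genes.

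**Figure D3:**
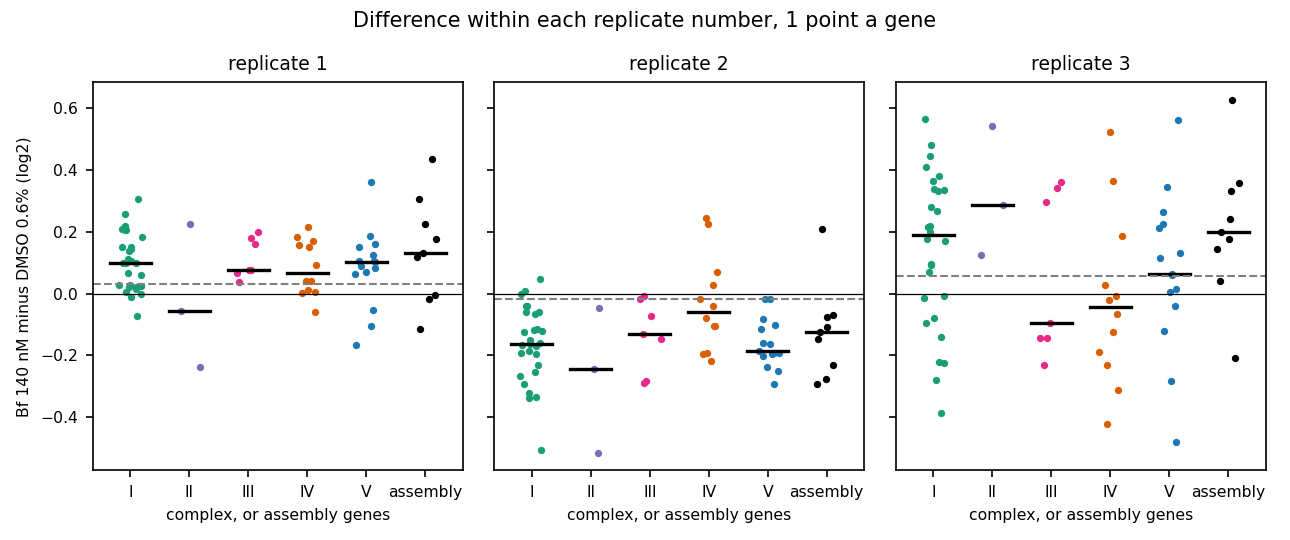
Difference within each replicate number, Bf 140 nM minus DMSO 0.6% on the log2 scale, 1 point a gene for complexes I to V and the assembly genes; black bars are medians and the dashed line is the median of all genes. Complexes II, III and V had all their genes below 0 in replicate 2, and in replicate 3 the medians of complexes III and IV were below 0 while those of the other groups were above it.

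In replicate 3 the medians of the complexes differed in sign, with genes of each spread widely around them and no test of the difference. The median was 0.19 for complex I, 0.29 for complex II, 0.06 for complex V and 0.20 for the assembly genes (8 of 9 above 0, where replicate 2 had 8 of 9 below 0 and a median of -0.12), against -0.10 for complex III (3 of 7) and -0.04 for complex IV (4 of 12). The control array of that number also stood apart by complex. DMSO 0.6% replicate 3 stood above the mean of the other DMSO 0.6% arrays by a median of 0.31 for complex III, 0.31 for complex IV, 0.24 for complex V and 0.10 for complex I, and was apart by -0.18 for complex II and by -0.06 for the assembly genes; over all genes the value was -0.03. That array also had the largest gap between the 3' and 5' control probe sets, a sign of shorter labelled transcripts: 2.21 for beta-actin, with 0.10 to 0.89 on the other 5 arrays, and 1.30 for GAPDH, with 0.10 to 0.38 on the others. Its median probe set was 7.85, and those of the others were 7.94 or higher. Without that array the median differences were 0.07 for complex I, -0.05 for complex II, 0.10 for complex III, 0.09 for complex IV, 0.05 for complex V and 0.06 for the assembly genes. The part of transcript length in the results above was not tested.

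**Figure D4:**
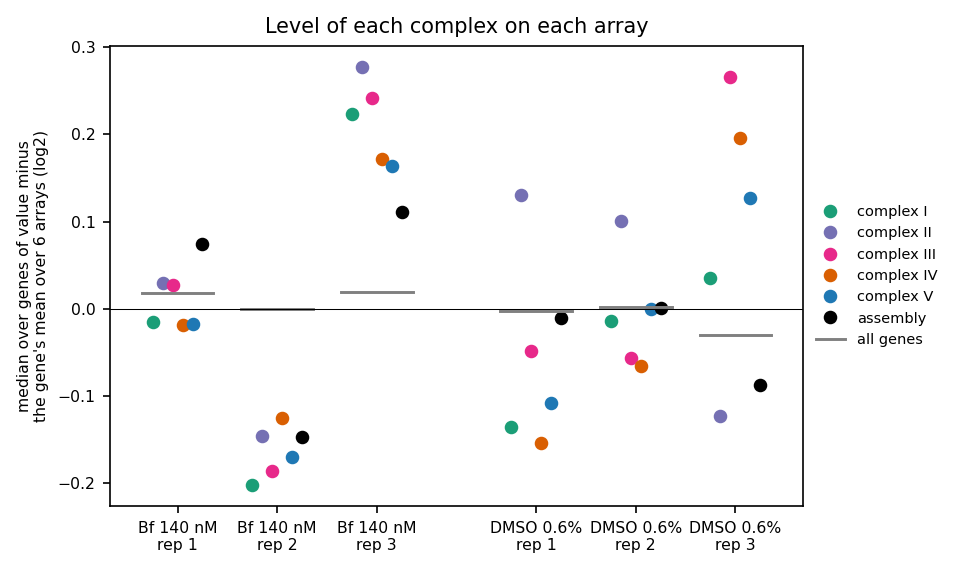
Median over the genes of each complex, and of the assembly genes, of the value minus the gene's own mean over the 6 arrays (log2), with the 3 Bf 140 nM arrays left and the 3 DMSO 0.6% arrays right; grey bars are the median of all genes. Within Bf 140 nM, all 6 groups of genes are lowest in replicate 2 and highest in replicate 3, and on DMSO 0.6% replicate 3 complexes III, IV and V are high while complex II and the assembly genes are low.

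Probe sets for the same gene showed the same array from another side. Of 23 genes with several probe sets, 9 had differences of 1 sign in all of them and 14 did not. On DMSO 0.6% replicate 3 the probe sets of 8 genes deviated in opposite directions from the other DMSO 0.6% arrays: SDHC, UQCRC2, ATP5MC2, ATP5MC3, NDUFA5, NDUFB8, COX4I1 and NDUFA2. For SDHC these deviations ran from -1.08 to 0.34 and for UQCRC2 from -0.53 to 0.31. All 4 probe sets of COX5B deviated upward, by 0.38 to 1.21, and all 3 of UQCRB, by 0.48 to 1.00. For the 8 genes first named, the sign of that deviation depended on which probe set was read.

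**Figure D5:**
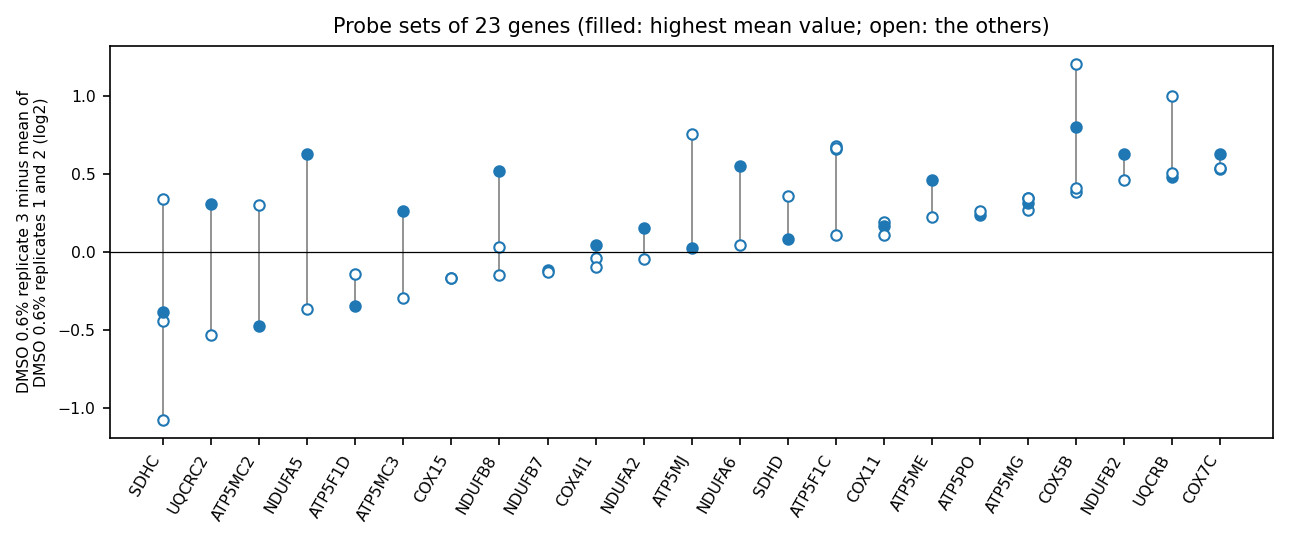
Deviation of DMSO 0.6% replicate 3 from the mean of DMSO 0.6% replicates 1 and 2 (log2) for each probe set of the 23 genes with several, filled where the probe set has the gene's highest mean. The probe sets of 8 genes lie on both sides of 0, and those of SDHC span -1.08 to 0.34.

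Likeness of members across the 6 arrays is given as a description with no test. The values of CYCS ran most closely with those of NDUFA6 (Pearson r = 0.98), UQCR11 (0.97) and ATP5ME (0.97), and its median correlation with the other member genes was 0.74. COX10 ran with few of them: the highest were NDUFB2-AS1 (0.61), COX6C (0.14) and NDUFA5 (0.12), and its median was -0.31. The 6 arrays share their labelling and normalization, and the genes their array shifts.

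Of the related gene lists outside the symbol rule, 0 members passed the test. Assembly and expression factors such as SURF1, SCO2 and TTC19 lay at 0.10 in the median, 12 of 13 being above 0 (63.7% of all genes were), with 13 of 13 above 0 in replicate 3 and 10 of 13 below 0 in replicate 2, and TTC19, a complex III assembly factor, was the 1 gene of this list whose groups did not overlap (0.12, higher in Bf 140 nM, as in 1.68% of all probe sets). The adenylate and proton exchange genes, such as SLC25A4 and VDAC1, lay at 0.08 (5 of 7 above 0). The nuclear regulators and mitochondrial transcription genes had 0.07 (7 of 10), with NRF1 at 0.01, GABPA at 0.08, YY1 at -0.15, TFAM, which packages mitochondrial DNA, at -0.10 and PPARGC1A, a coactivator of mitochondrial biogenesis, at 0.17. Ubiquinone synthesis had 0.05 (6 of 8) and the citrate cycle with pyruvate dehydrogenase -0.0022 (6 of 13).

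Promoter letters were read for the member genes. RefSeq promoter windows on build GRCh38.p14, 250 bases before to 50 after the gene start, were found for 68 of the 79 genes. On either strand, the NRF1 letters GCGCATGC were in 15 of the 68 (22.1%), CYCS, ATP5MC2 and SDHD among them, and in 4.26% of 15842 promoters of protein-coding genes. The ETS letters CCGGAAG, which GABP reads, were in 20 (29.4%, against 14.2%), and the YY1 letters AAGATGGC in 11 (16.2%, against 3.91%). The windows of the gene without overlap (COX10), of the gene with the smallest unadjusted p (UQCRC1) and of the carrier (CYCS) are printed 5′ to 3′ along the gene, with any of these letters in capitals. COX10 is at chr17:14069254-14069553 on the plus strand, UQCRC1 at chr3:48609597-48609896 on the minus strand and CYCS at chr7:25125211-25125510 on the minus strand.
COX10: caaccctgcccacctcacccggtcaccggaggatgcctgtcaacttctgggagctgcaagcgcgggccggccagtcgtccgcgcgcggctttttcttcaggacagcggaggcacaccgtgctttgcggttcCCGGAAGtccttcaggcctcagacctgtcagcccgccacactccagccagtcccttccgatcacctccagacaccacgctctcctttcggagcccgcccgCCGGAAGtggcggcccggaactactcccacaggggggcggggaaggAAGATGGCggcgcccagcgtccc
UQCRC1: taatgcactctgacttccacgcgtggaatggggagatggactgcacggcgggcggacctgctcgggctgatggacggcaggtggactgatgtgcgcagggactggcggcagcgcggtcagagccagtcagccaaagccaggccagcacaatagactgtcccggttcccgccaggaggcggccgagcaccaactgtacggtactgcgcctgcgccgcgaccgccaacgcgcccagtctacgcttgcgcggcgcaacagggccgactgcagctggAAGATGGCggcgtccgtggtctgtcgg
CYCS: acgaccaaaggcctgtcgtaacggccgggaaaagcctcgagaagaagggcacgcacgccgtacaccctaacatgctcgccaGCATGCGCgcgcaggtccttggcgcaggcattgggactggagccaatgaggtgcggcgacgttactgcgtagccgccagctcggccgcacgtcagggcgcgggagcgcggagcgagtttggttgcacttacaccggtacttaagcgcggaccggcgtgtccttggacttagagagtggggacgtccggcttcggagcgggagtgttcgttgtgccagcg
The COX10 window holds CCGGAAG at 119 and 19 bases before the start and AAGATGGC at 27 bases after it. That of UQCRC1 holds AAGATGGC at 23 bases after the start, and that of CYCS holds GCGCATGC, read on the opposite strand, at 169 bases before it. COX10 and UQCRC1 thus share the YY1 letters. A match is a match of letters only.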

How the data were processed

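Expression was measured on Affymetrix human oligonucleotide arrays. The authors computed cell intensities in the scanner software and applied variance-stabilizing normalization (justvsn) in R 2.5.0, so the deposited values are on a generalised log2 scale, which compresses dim probe sets and understates their folds. The log base was settled from the highest value (15.2). The sources used here do not give the step from probes to probe sets. There were 22277 probe sets in the deposited table, including 62 controls, and 0 sample columns went unused. Detection calls were not used, so all 22215 others were tested. Of these, 19064 had 1 symbol, 1043 several and 2108 none.

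Groups were compared with limma 3.58.1 in R 4.3.3 in place of the study's SAM, unpaired and two-sided, with Benjamini-Hochberg adjustment over all probe sets and a threshold of 0.10. Each gene was read at the probe set of highest mean. The limma step was run on simulated data with planted changes and noise drawn independently for each value, without the array shifts seen here. Arrays have no read depth, and their number limits the precision.

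The members and lists were chosen with earlier results of these data known. Named genes were all assembly genes, CYCS, CYC1, the SDH genes, the 3 higher and 3 lower genes of complexes I, III, IV and V with the lowest unadjusted p, genes without overlap, genes with 3 or more probe sets and tissue isoforms; other values were added after they were seen. Replicate numbers 1, 2 and 3, given in the titles, were checked as pairs. Deviations of same-numbered arrays from their group means correlated at 0.60, 0.23 and 0.57. Each was above the limit of 0.1, so the numbers were taken to pair the arrays. A replicate block was run beside the main fit and with each pair left out, but not beside the other alternatives. Some arrays of unlike number also passed: bilirubin replicate 1 with solvent replicate 2 (0.264) and bilirubin replicate 2 with solvent replicate 1 (0.103). The remaining values for unlike numbers were negative. Since 0.264 exceeds the 0.23 of number 2, the check cannot show that number 2 pairs its arrays. Differences within replicate 2 rest on the labels: the titles, and a number in the descriptions that is 5 for replicate 2 of both groups. Other alternatives were quantile normalization, centring on one median, a filter on dim probe sets, the median over probe sets, dropping probe sets whose names end in _s_at or _x_at, the beta-actin covariate and leaving out arrays.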

Additional observations from a re-analysis of the deposited data

How the results depend on the processing

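No member passed the threshold under any alternative. The replicate block left 0 member probe sets past the threshold and changed no call. At an unadjusted p under 0.05 it held 1 member probe set (0.87%) and 92 over the whole array (0.414%). The member was the UQCRB probe set that differed by -0.29 (unadjusted p = 0.0361 by limma with the block). In the block without replicate 2 there were 5 member probe sets (4.35%, against 8.78% of all probe sets). The lowest of these was a UQCRC2 probe set (unadjusted p = 0.00667 by limma with the block). With the block and without replicate 3, 2 probe sets of the whole array passed, and no member. The count of member probe sets without overlap was 1 in the full set and ran from 1 to 20 when 1 array was left out: 20 without Bf 140 nM replicate 2 (17.4%, against 17.6% of all probe sets), 4 without Bf 140 nM replicate 3 (3.48% against 10.4%), 5 without DMSO 0.6% replicate 1 (4.35% against 7.35%), 9 without DMSO 0.6% replicate 2 (7.83% against 10.3%) and 4 without DMSO 0.6% replicate 3 (3.48% against 8.74%). It was 3 after quantile normalization, 0 without _s_at and _x_at probe sets, and 6, 30 and 11 without pairs 1, 2 and 3. COX10 is read by an _s_at probe set. The share over all probe sets was not computed for these settings, so these counts are not read as a result about the members. The assembly median was 0.23 in the block without replicate 2, against 0.08. Leaving out 1 array moved the median of all members between -0.09 and 0.12 and that of core minus assembly between -0.14 and 0.01. With 3 arrays a group, a difference near 0 has no settled sign, and the sign of the following uncalled genes turned; the cause was not tested.

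Centring turned COX15 (-0.0196), COX4I1 (-0.022), CYC1 (-0.015), CYCS (-0.021), SDHA (-0.025) and SDHC (-0.013), and quantile normalization turned COX15 (-0.065), COX6A1 (0.0004), CYC1 (-0.0064), SDHA (-0.042), SDHC (-0.032) and UQCRQ (0.0078). The beta-actin covariate turned ATP5F1C (0.0098), ATP5MC3 (0.015), COX15 (-0.005), COX5B (0.037), COX6A1 (0.041), COX7C (0.051), NDUFB8 (0.080), SDHA (-0.025), SDHC (-0.025), SDHD (0.031), UQCRB (0.023) and UQCRQ (0.069). The median over probe sets turned COX11 (-0.0009), COX4I1 (-0.019), COX5B (0.0018), NDUFB8 (0.11), SDHC (-0.060) and UQCRC2 (0.055). Dropping _s_at and _x_at probe sets left a dimmer probe set to read for each gene that it turned: ATP5F1C (0.15), ATP5MC2 (-0.056), COX11 (-0.043), NDUFB8 (0.11) and UQCRC2 (0.23). In the replicate block, leaving out pair 1 turned COX11 (-0.059), COX4I1 (-0.0041) and CYCS (-0.17), leaving out pair 2 turned ATP5F1A (0.0054), ATP5MC3 (0.021), NDUFB8 (0.11) and SDHD (0.25), and leaving out pair 3 turned COX15 (-0.15), COX4I1 (-0.078), COX5B (0.0006), COX6A1 (0.037), COX6B1 (-0.095), COX6C (0.016), COX7C (0.026), COX8A (-0.069), CYC1 (-0.12), NDUFAF7 (-0.051), NDUFB4 (-0.011), SDHA (-0.052), SDHC (-0.24), UQCRB (0.016) and UQCRQ (0.029).

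Leaving out single arrays gave these ranges for the 31 genes that turned: ATP5F1A -0.17 to 0.050, ATP5F1C -0.24 to 0.11, ATP5F1E -0.40 to 0.099, ATP5MC1 -0.29 to 0.056, ATP5MC3 -0.15 to 0.048, ATP5MG -0.22 to 0.033, COX11 -0.050 to 0.23, COX15 -0.092 to 0.14, COX20 -0.023 to 0.30, COX4I1 -0.094 to 0.14, COX5B -0.27 to 0.16, COX6A1 -0.086 to 0.092, COX6B1 -0.034 to 0.14, COX6C -0.24 to 0.091, COX7A2 -0.27 to 0.030, COX7A2L -0.21 to 0.017, COX7C -0.18 to 0.15, COX8A -0.075 to 0.27, CYC1 -0.14 to 0.22, CYCS -0.19 to 0.21, NDUFAF4 -0.081 to 0.29, NDUFAF7 -0.035 to 0.22, NDUFB2 -0.31 to 0.069, NDUFB3 -0.29 to 0.084, NDUFB8 -0.20 to 0.16, SDHA -0.053 to 0.074, SDHC -0.11 to 0.097, SDHD -0.17 to 0.18, UQCRB -0.23 to 0.094, UQCRC2 -0.21 to 0.038, UQCRQ -0.16 to 0.16. Sign changes of genes, here and above, were read only for 47 named genes, of which 31 turned without single arrays. The rest of the 47 kept their sign, among them COX10 (-0.15 to -0.10), UQCRC1 (0.11 to 0.24) and NDUFA5 (-0.48 to -0.04). Members that were not named were not checked.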
